A study of Mus musculus with 4 samples.

Results

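Leukaemic cells lacking both working alleles of Runx1 (Runx1 delta/delta) were compared with leukaemic cells carrying 1 deleted allele (Runx1 delta/+). The members of the comparison were genes whose RPKM (reads scaled to gene length and to mapped reads) averaged 1 or more over the 4 libraries and whose level differed in the same direction between the genotypes in both treatments. They numbered 7132 of the 9595 genes at that level, out of 23240 in the table; 3254 were higher in Runx1 delta/delta in both pairs and 3878 were lower, and 2463 had opposite signs. The mean that admits a gene fell between Rufy4, at 1.0007 RPKM, and Zmynd17, at 0.998 RPKM. Of the genes admitted, 39 were under 1 RPKM in both Runx1 delta/+ libraries and 115 in both Runx1 delta/delta libraries, so these entered through the genotype in which they were high.

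All 4 libraries came from bone marrow of leukaemic mice on the background labelled B6, and the labels give every one of them the cell type RUNX1-FLT3ITD_AML, an acute myeloid leukaemia named for RUNX1 and for an internal tandem duplication of the receptor FLT3. Marrow was kept for 22 h in the serum-free medium SFEM with FLT3L, SCF, IL3 and IL11, and either 200 nM 4OHT (4-hydroxytamoxifen, an active form of tamoxifen) or the matching volume of ethanol (EtOH) was added. Sorting kept cells with GFP and BFP that lacked the surface markers CD11b and Gr1. Each genotype had 1 EtOH and 1 4OHT library, so n was 2 libraries a genotype, matched by treatment. The 2 libraries of a genotype are 2 treatments under 1 replicate number, so no second replicate of either genotype was given. Both Runx1 delta/delta libraries carry replicate number 1 and both Runx1 delta/+ libraries number 2, so that genotype, the individual leukaemia and any batch that follows the number cannot be told apart. The labels leave unsaid how many mice stand behind each genotype, give no age or sex, and do not say which protein 4OHT was meant to act on, what delivered GFP and BFP, or which library was made with which of 2 named kits.

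RUNX1 is the DNA-binding subunit of core-binding factor and a regulator of blood stem and progenitor cells; it is often mutated or fused in acute myeloid leukaemia, and FLT3 signalling frequently accompanies such lesions. Type I interferon acts through the receptor IFNAR and signalling that reaches the interferon-stimulated response element and switches on antiviral genes and MHC class I presentation. Hypoxia-inducible factor (HIF) switches on glucose uptake, glycolysis and genes that restrain mitochondrial use of pyruvate.

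Depth recovered from the steps of the RPKM values was between 33.7 and 39.4 M mapped reads a library. The Runx1 delta/delta 4OHT library stood apart in the number of genes above 0, at 16105 against 13451 to 13791 in the other 3 libraries, while genes of at least 1 RPKM numbered 9129 to 9619 in all of them. The erythroid list held 13.9% and 8.75% of summed RPKM in the EtOH libraries of Runx1 delta/delta and Runx1 delta/+, and 1.33% and 1.07% in their 4OHT libraries. Myeloid genes were mixed. Of 25 neutrophil and granule genes 8 reached a mean of 1 RPKM, with S100a8 between 9.39 and 30.5 RPKM; the CD11b and Gr1 gate would itself remove granulocytes. Mpo, the myeloperoxidase gene, reached at most 0.556 RPKM, Elane, neutrophil elastase, 0.484 RPKM, and Cd34, a progenitor marker, 0.395 RPKM. Kit, a progenitor receptor, reached at most 1.61 RPKM. Sfpi1, which encodes the myeloid factor PU.1, lay between 3.58 and 21.5 RPKM, and the 16 myeloid transcription factors of the list summed to between 92.9 and 207 RPKM. The erythroid regulator Gata1 lay between 142 and 308 RPKM, so erythroid transcripts were present in every library. Whether they came from the leukaemic cells or from other sorted cells was not tested. Itgam, which encodes the CD11b of the gate, was between 0.168 and 0.358 RPKM. None of the 20 B cell genes reached a mean of 1 RPKM. Because these are bulk samples, fewer cells of a type and less RNA per cell cannot be told apart.

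Below, a pair of values gives the EtOH library first and the 4OHT library second, and "against" sets Runx1 delta/delta before Runx1 delta/+. Runx1 itself measured 568 and 380 RPKM against 555 and 328 RPKM. The levels of the genotypes were close within each treatment (difference 0.12 on the scale of log2(RPKM + 1), SE 0.12, limma adjusted p = 0.491). Because a gene has a single value that does not separate the deleted part, this level checks the genotype labels in neither direction. Flt3, the receptor named in the cell type, stood at 12.6 and 16.8 RPKM against 46.3 and 39.7 RPKM. Both Runx1 delta/+ libraries were above both Runx1 delta/delta libraries (difference -1.49, SE 0.19, limma adjusted p = 0.0204).

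Across all genes tested, 1112 (11.6%) passed an adjusted p of 0.05 for genotype in limma with treatment in the model. Of these, 449 (4.68%) were higher in Runx1 delta/delta and 663 (6.91%) lower. A gene whose sign differs between the pairs can hardly be called, since the residual is set by how far the pairs differ. A difference of at least 1 on the log2 scale was reached by 140 of the genes called higher and by 250 called lower. The differences of the EtOH pair and of the 4OHT pair had a correlation of 0.664 across genes, given as a description, since genes are not independent replicates and the libraries of a pair share a treatment. The SD of the difference over the genes tested was 0.48, and the median was -0.03. Groups did not overlap for 1628 tested genes higher in Runx1 delta/delta (17.0%) and 2057 lower (21.4%). With RPKM rescaled after leaving out erythroid genes the split became 311 higher and 1103 lower, with the median of all genes at -0.16. The calls rest on the filter on low values, on all 4 libraries and on the treatment term. In limma 0 genes passed with no filter (3906 at an unadjusted p under 0.05, smallest adjusted p = 0.0585), without the treatment term (880 at an unadjusted p under 0.05) or with any 1 library left out (169 to 627 at an unadjusted p under 0.05).

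**Figure D1:**
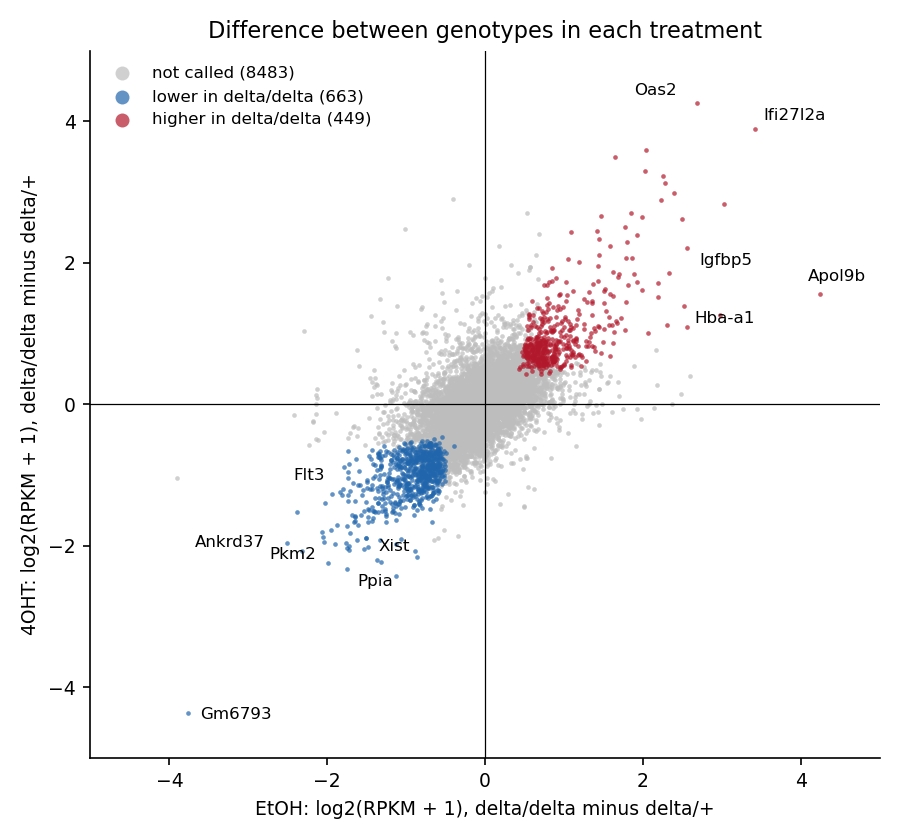
Each point is 1 of the 9595 tested genes; the x axis gives its difference between genotypes in EtOH and the y axis in 4OHT, both as log2(RPKM + 1) of Runx1 delta/delta minus Runx1 delta/+. The 449 genes called higher lie in the upper right and the 663 called lower in the lower left, with Ifi27l2a and Oas2 far out among the first and Gm6793, a gene known by a clone name, among the second.

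The difference followed GC content. Transcripts of genes called higher had a median GC content of 52.9%, those called lower 42.5%, and all tested genes 49.6%, and the correlation of difference and GC content across genes was 0.31 in the EtOH pair and 0.35 in the 4OHT pair. In the 952 genes of lowest GC content (median 39.7%) the median difference was -0.43, and in the 952 of highest (59.2%) it was 0.16. With a smooth trend in GC content and transcript length removed, 508 genes were called, of which 288 were higher and 220 lower, and 447 of them were among the 1112. The part of GC content or of the library kit in any single result was not tested. The calls in the lists below are therefore given also with this trend removed. List medians are those without the removal unless stated.

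**Figure D2:**
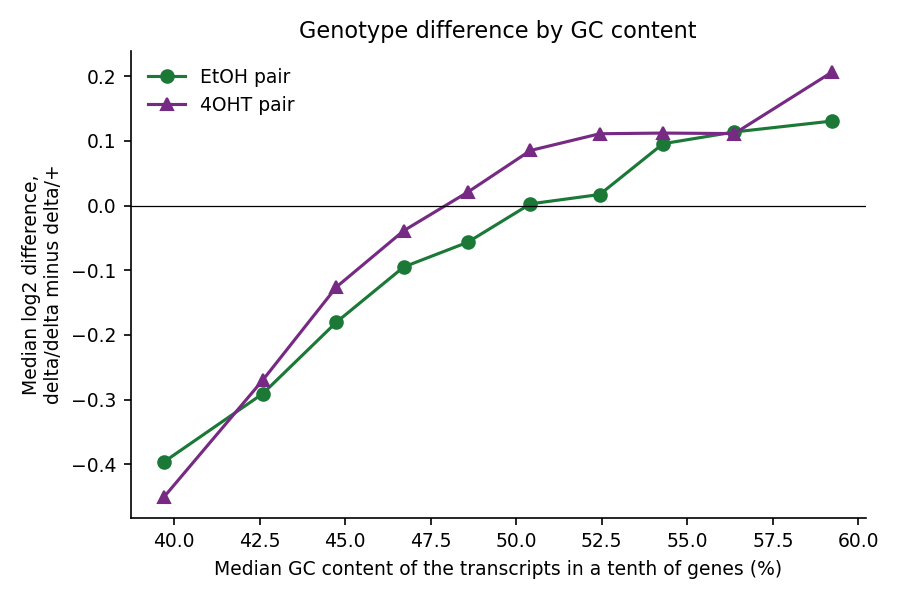
Median difference between genotypes (y axis, log2 scale, Runx1 delta/delta minus Runx1 delta/+) in 10 bins of the tested genes ordered by transcript GC content (x axis, median percent GC of each bin), for the EtOH pair (circles) and the 4OHT pair (triangles). Both lines climb, from -0.40 and -0.45 in the lowest bin to 0.13 and 0.21 in the highest.

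Interferon-stimulated genes were higher in Runx1 delta/delta. Of the 51 on the list, all were in the table and 45 were tested. Of these 33 were called higher and 1 lower, beside 4.68% and 6.91% of all genes. A positive difference in both pairs, which is part of the rule of the comparison, was found in 39, beside 3254 of all 9595 genes. The median difference was 1.46 beside -0.03 for all genes. With the GC and length trend taken out 32 were called higher and 1 lower, not all of them the same genes. The summed RPKM of the list was 5361 and 2714 against 1904 and 849. The EtOH pair alone, which does not contain the library with the most detected genes, gave a median difference of 1.43, equal to that of the 4OHT pair. With a library left out, which leaves treatment unbalanced, the list's median was 0.93 without the EtOH and 1.89 without the 4OHT library of Runx1 delta/delta, and 1.90 and 0.80 without those of Runx1 delta/+. Ifi44, an interferon-induced gene among the 33, was under 1 RPKM in both Runx1 delta/+ libraries and so was tested only through its level in Runx1 delta/delta. Of the 33 called genes 26 had a RefSeq promoter entry (250 bases before to 50 bases after the start).

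The core of the interferon-stimulated response element, searched as GAAANNGAA on both strands with overlaps allowed, was present in the promoter of 15 of these 26 genes (57.7%), against 9.76% of the 27025 genes with an entry. Counted by window, since some genes have several starts, it was in 17 of 31 (54.8%) against 8.56% of 32851. Interferon-stimulated genes as a class are known for this element, and 6 of the 9 tested list members with an entry that were not called higher also held it (66.7%). The core bound by RUNX proteins, TGTGGT, searched the same way, was in 4 of the 26 promoters (15.4%) against 18.9% of all genes with an entry, and the GATA core AGATAA in 3 (11.5%) against 12.7%. A match describes letters and does not show that a factor bound there. The promoters of 3 genes called higher are shown because they carry the element near the start, with its matches in capitals, and Irf7 had 0 matches in its window. They are from RefSeq on build GRCm38.p6, 5′ to 3′ on the gene's strand: Isg15 at chr4:156200769-156201068 on the minus strand with 3 overlapping matches, Rsad2 at chr12:26456403-26456702 on the minus strand with 1, and Ifit1 at chr19:34640639-34640938 on the plus strand with 3.
Isg15: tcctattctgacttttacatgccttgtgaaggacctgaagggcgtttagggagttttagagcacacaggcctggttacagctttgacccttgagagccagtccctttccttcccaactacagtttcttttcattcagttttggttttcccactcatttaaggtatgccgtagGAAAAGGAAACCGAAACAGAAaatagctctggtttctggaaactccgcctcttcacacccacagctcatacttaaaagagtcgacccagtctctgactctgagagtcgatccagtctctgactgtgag
Rsad2: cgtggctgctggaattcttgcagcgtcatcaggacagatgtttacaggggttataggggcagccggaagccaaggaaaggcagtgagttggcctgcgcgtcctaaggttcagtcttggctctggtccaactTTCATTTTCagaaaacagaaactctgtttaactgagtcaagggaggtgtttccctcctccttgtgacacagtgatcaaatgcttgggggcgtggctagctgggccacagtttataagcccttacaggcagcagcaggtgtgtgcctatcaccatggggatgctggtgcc
Ifit1: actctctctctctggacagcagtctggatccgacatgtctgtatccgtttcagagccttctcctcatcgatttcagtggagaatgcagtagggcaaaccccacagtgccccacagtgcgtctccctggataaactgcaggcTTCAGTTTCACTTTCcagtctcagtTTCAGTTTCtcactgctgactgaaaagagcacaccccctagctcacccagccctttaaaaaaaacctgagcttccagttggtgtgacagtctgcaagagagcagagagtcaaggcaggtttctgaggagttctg

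Among the genes that carry out the antiviral response, Ifi27l2a, which encodes an interferon-inducible mitochondrial protein, had the largest difference of the genes that met the naming rule. It was at 105 and 79.2 RPKM against 8.91 and 4.38 RPKM (difference 3.66, SE 0.17, limma adjusted p = 0.00677). This was 11.8-fold in EtOH and 18.1-fold in 4OHT, and the groups did not overlap. The 2',5'-oligoadenylate synthetases, which make the activator of RNase L, followed. Oas2 stood at 97.7 and 24.4 RPKM against 14.4 and 0.328 RPKM (difference 3.47, SE 0.37, limma adjusted p = 0.0162), and Oas1a at 134 and 62.6 RPKM against 27.7 and 7.62 RPKM. Oas1g, Oas3 and Oasl2 had differences of 2.93, 2.57 and 2.66. In each of them the Runx1 delta/delta library of a treatment was above its Runx1 delta/+ partner, while the 4OHT libraries lay below the EtOH libraries of the same genotype. The Oas genes are close paralogs, so the division of reads among them is uncertain.

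Isg15, a ubiquitin-like modifier whose promoter is shown above, was at 919 and 227 RPKM against 268 and 39.0 RPKM (difference 2.14, SE 0.20, limma adjusted p = 0.0126). Its groups overlapped, since the 4OHT library of Runx1 delta/delta was below the EtOH library of Runx1 delta/+, and the same held for Rsad2 and Ifit1. Rsad2, the antiviral enzyme viperin, had 207 and 29.1 RPKM against 42.7 and 2.20 RPKM, and Ifit1, an RNA-binding antiviral protein, 81.0 and 7.89 RPKM against 21.8 and 0.356 RPKM. Usp18, the protease that removes ISG15 and restrains IFNAR signalling, had 68.8 and 53.4 RPKM against 16.6 and 7.72 RPKM, without overlap. Membrane-acting restriction factors were also higher without overlap. Ifitm3, which blocks virus fusion, had 760 and 351 RPKM against 133 and 56.1 RPKM (difference 2.56, SE 0.12, limma adjusted p = 0.00677), and Bst2, which tethers budding virus, 476 and 415 RPKM against 148 and 118 RPKM. Mx1 and Mx2, dynamin-like antiviral GTPases, were called at lower levels, with Mx1 at 8.61 and 9.78 RPKM against 1.95 and 2.01 RPKM. Further genes with large differences were Rtp4, a receptor-transporter protein (2.82), Trim30a, a TRIM family protein (2.05), and, outside the list, Apol9b, an apolipoprotein L gene (2.90). Apol9b rested on 27.5 and 1.997 RPKM against 0.502 and 0.0159 RPKM and was not called after the GC and length trend was removed (adjusted p = 0.0633 in limma). Like Ifi44, it was under 1 RPKM in both Runx1 delta/+ libraries and was tested only through its level in Runx1 delta/delta. The 1 list member called lower was Ifi27l1, a relative of Ifi27l2a, at 28.2 and 29.0 RPKM against 62.5 and 47.0 RPKM.

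**Figure D3:**
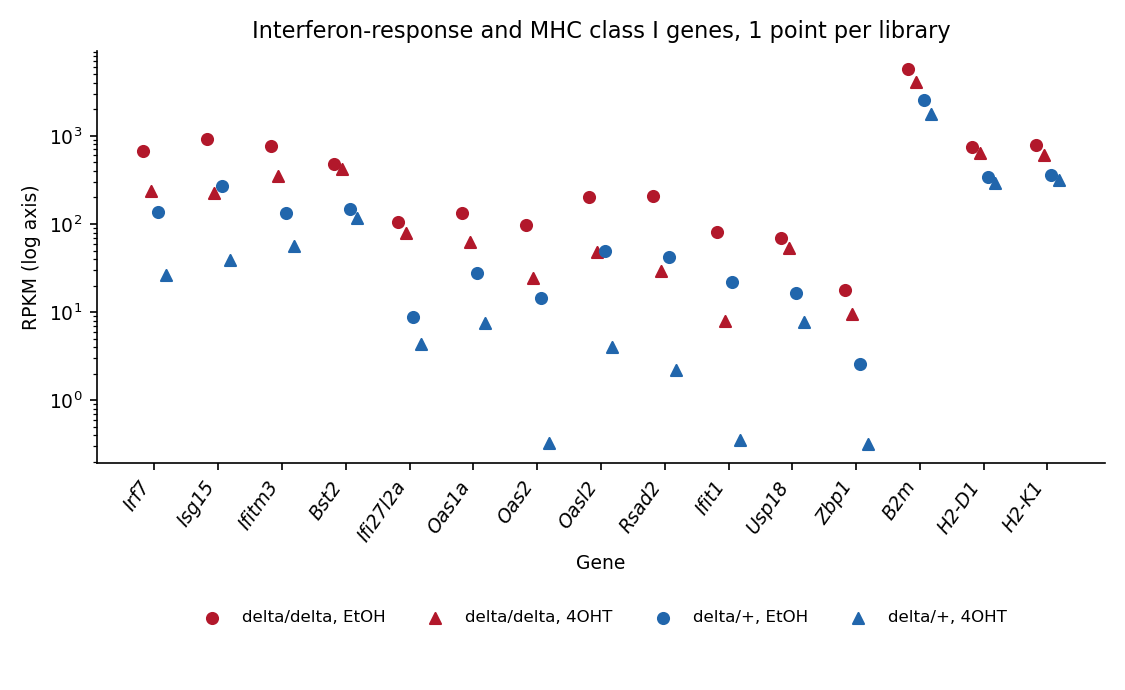
RPKM of 15 interferon-response and MHC class I genes in each of the 4 libraries (log axis; red, Runx1 delta/delta; blue, Runx1 delta/+; circles, EtOH; triangles, 4OHT). In each gene each red point lies above the blue point of the same shape, while for several of them, such as Isg15 and Rsad2, the red triangle lies below the blue circle.

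Of the receptors, sensors and regulators of the pathway, 33 of 34 entries were in the table and 22 were tested. Of these 8 were called higher and 1 lower, beside 4.68% and 6.91% of all genes. The counts were 8 and 0 after removal of the GC and length trend, when Ifngr2 was no longer among them. The median difference was 0.43, and 0.28, 0.62, 0.79 and 0.26 without the EtOH or 4OHT library of Runx1 delta/delta or those of Runx1 delta/+, in that order. Among the members that did not pass, Ifnar2, a chain of the type I receptor, had 16.0 and 8.36 RPKM against 15.5 and 7.26 RPKM, and Irf9, an interferon regulatory factor, 62.0 and 48.4 RPKM against 48.3 and 34.5 RPKM (difference 0.42, limma adjusted p = 0.101). Irf7, the regulator that amplifies type I interferon production, was called higher, at 671 and 238 RPKM against 138 and 26.3 RPKM (difference 2.70, SE 0.22, limma adjusted p = 0.0126), and its groups did not overlap. Irf2, a related factor, was higher by 0.76. The RNA sensors Ddx58 (RIG-I), Ifih1 (MDA5) and Dhx58 (LGP2) were higher by 0.99, 0.63 and 1.89, and Zbp1, a sensor of Z-form nucleic acid, was at 17.9 and 9.49 RPKM against 2.61 and 0.317 RPKM. Aim2, a sensor of cytosolic DNA that assembles an inflammasome, was the member called lower, at 2.74 and 3.92 RPKM against 5.18 and 11.3 RPKM, and did not pass after removal of the trend (limma adjusted p = 0.0791). Of the interferon genes themselves 17 were in the table; 14 were listed at 0 in all 4 libraries and none was above 0.191 RPKM in any.

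MHC class I presentation genes were higher in Runx1 delta/delta as well. Of 24 tested of 25, 13 were called higher and 0 lower, beside 4.68% and 6.91% of all genes. The median difference was 0.75. The counts were 10 and 0 after removal of the GC and length trend. Groups did not overlap for 16 members higher in Runx1 delta/delta, as for 17.0% of all tested genes. B2m, the light chain of every class I molecule, was at 5643 and 4062 RPKM against 2512 and 1768 RPKM (difference 1.18, SE 0.08, limma adjusted p = 0.0126), that is 2.25-fold in EtOH and 2.30-fold in 4OHT. The classical heavy chains H2-K1 and H2-D1 were at 789 and 608 RPKM against 355 and 317 RPKM, and at 754 and 637 RPKM against 339 and 292 RPKM. The non-classical H2-T22 was at 31.5 and 25.3 RPKM against 13.3 and 9.90 RPKM. These heavy chains share long stretches of sequence, so reads could be split between them. Tap1, a chain of the peptide transporter, and Tapbp, its link to class I molecules, were higher by 0.86 and 0.97. Of the immunoproteasome subunits, Psmb9 and Psmb10 were higher by 0.84 and 0.74, and neither passed after removal of the trend (limma adjusted p = 0.0527 and 0.0636). Nlrc5, the transactivator of class I genes, was at 9.07 and 8.22 RPKM against 6.44 and 3.32 RPKM and did not pass (limma adjusted p = 0.0662). MHC class II genes were low. H2-Ab1 was at 1.33 and 1.37 RPKM against 6.12 and 4.23 RPKM, and H2-DMa at 0.370 and 1.26 RPKM against 1.63 and 3.05 RPKM. Both were called lower (also after removal of the trend), among 4 tested of 16 dendritic cell and class II genes. The other tested members, Zbtb46 and Tcf4, are not class II genes and did not pass. Of the untested members, Cd74, at 0.633 and 1.42 RPKM against 0.964 and 0.789 RPKM, H2-Aa and H2-DMb1 were lower in the EtOH pair only. H2-Eb1 was lower in the 4OHT pair only.

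Genes of glycolysis and of the hypoxia response were lower in Runx1 delta/delta. Of 30 listed, 28 were tested. Of these 18 were called lower and 1 higher (16 and 0 after removal of the GC and length trend), beside 6.91% and 4.68% of all genes. A negative difference in both pairs, which is part of the rule of the comparison, was found in 22, beside 3878 of all 9595 genes. The median difference was -1.05, and -1.30 in the EtOH pair alone. The summed RPKM of the list was 6204 and 6584 against 12166 and 10032. Enzymes of glycolysis and the other members, divided after their values were seen, gave like counts: 9 of 14 enzymes and 9 of 14 others were called lower (9 and 7 after removal of the trend). The core of the hypoxia response element, ACGTG on both strands, was in the promoter of 13 of the 17 genes called lower that have an entry (76.5%), against 21.8% of all genes with one. By window it was in 15 of 27 (55.6%) against 19.6%. Of the 9 list members with an entry that were tested and not called lower 6 held it as well (66.7%). By window it was in 6 of 10 of theirs (60.0%).

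The promoters of 3 genes called lower are printed because they hold that core, in capitals; Bnip3 has it on both strands in overlap. They are from the same RefSeq build: Ankrd37 at chr8:45999801-46000100 on the minus strand with 2 matches, Bnip3 at chr7:138909457-138909756 on the minus strand with 2, and Slc2a1 at chr4:119108495-119108794 on the plus strand with 1. Neither of the 2 windows of Pdk1 held a match.
Ankrd37: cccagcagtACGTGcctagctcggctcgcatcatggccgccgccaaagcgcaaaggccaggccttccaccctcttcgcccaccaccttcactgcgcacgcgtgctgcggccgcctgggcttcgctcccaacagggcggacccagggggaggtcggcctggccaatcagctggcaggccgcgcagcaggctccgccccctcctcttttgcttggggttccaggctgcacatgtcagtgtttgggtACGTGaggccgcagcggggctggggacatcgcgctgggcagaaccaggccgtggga
Bnip3: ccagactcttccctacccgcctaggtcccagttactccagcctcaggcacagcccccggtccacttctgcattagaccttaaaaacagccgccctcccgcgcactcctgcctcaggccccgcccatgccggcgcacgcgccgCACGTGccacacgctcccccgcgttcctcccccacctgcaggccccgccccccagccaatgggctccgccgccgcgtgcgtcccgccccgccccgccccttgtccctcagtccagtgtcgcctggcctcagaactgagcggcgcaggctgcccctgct
Slc2a1: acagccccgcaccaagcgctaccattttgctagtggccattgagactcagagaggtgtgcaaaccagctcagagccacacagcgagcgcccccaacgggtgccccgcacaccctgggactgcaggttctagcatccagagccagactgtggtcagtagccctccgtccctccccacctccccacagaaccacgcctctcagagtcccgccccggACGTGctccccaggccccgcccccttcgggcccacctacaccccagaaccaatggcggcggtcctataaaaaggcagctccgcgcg

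Transporters of glucose were lower: Slc2a1, the transporter GLUT1, was at 13.96 and 12.1 RPKM against 45.7 and 38.4 RPKM (difference -1.62, SE 0.13, limma adjusted p = 0.0126). Slc2a3, the transporter GLUT3, was at 17.8 and 38.5 RPKM against 44.7 and 77.5 RPKM. Among the enzymes, Pkm2, pyruvate kinase M, had the largest difference, at 247 and 140 RPKM against 1024 and 541 RPKM (difference -2.0, SE 0.11, limma adjusted p = 0.0108). Eno1, enolase, was at 255 and 260 RPKM against 778 and 850 RPKM. The differences were -1.96 and -1.16 for the aldolases Aldoc and Aldoa, -1.29 for Pgk1, phosphoglycerate kinase, -1.30 for Pgam1, phosphoglycerate mutase, and -1.03 for Tpi1, triosephosphate isomerase. Ldha, which turns pyruvate into lactate, was at 344 and 563 RPKM against 882 and 904 RPKM. In none of these genes did the groups overlap. Eno1, Pkm2, Ldha, Pgk1, Pgam1 and Gapdh have near-identical processed copies in the mouse genome, so their values are uncertain. Gapdh, at 3292 and 3712 RPKM against 5102 and 4517 RPKM, did not pass (difference -0.46, limma adjusted p = 0.0570). Hk1, a hexokinase, was the member called higher, at 319 and 257 RPKM against 220 and 154 RPKM, and did not pass after removal of the trend (limma adjusted p = 0.0702).

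Single genes of lactate export and of mitochondria on the list were lower too. Slc16a3, the lactate exporter MCT4, was at 31.4 and 7.51 RPKM against 79.99 and 39.0 RPKM, and Pdk1, the kinase that shuts off pyruvate dehydrogenase, at 5.53 and 1.91 RPKM against 20.7 and 10.7 RPKM. Bnip3, a mitophagy receptor, was at 28.3 and 15.4 RPKM against 97.1 and 66.2 RPKM (difference -1.89, SE 0.15, limma adjusted p = 0.0126). Ankrd37, an ankyrin-repeat protein, was at 3.20 and 1.48 RPKM against 22.9 and 8.62 RPKM (difference -2.23, SE 0.19, limma adjusted p = 0.0126), 7.16-fold and 5.84-fold higher in Runx1 delta/+. Vegfa, the angiogenic growth factor, was at 4.84 and 5.09 RPKM against 13.9 and 9.24 RPKM. Hif1a, which encodes the oxygen-sensitive subunit of HIF, was at 15.9 and 23.3 RPKM against 12.8 and 18.2 RPKM. It did not pass (difference 0.32, limma adjusted p = 0.175). HIF protein was not measured, and a part of HIF in these differences was not tested. Of 25 oxidative phosphorylation genes 0 were called in limma, also after removal of the trend, with a median difference of 0.10.

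**Figure D4:**
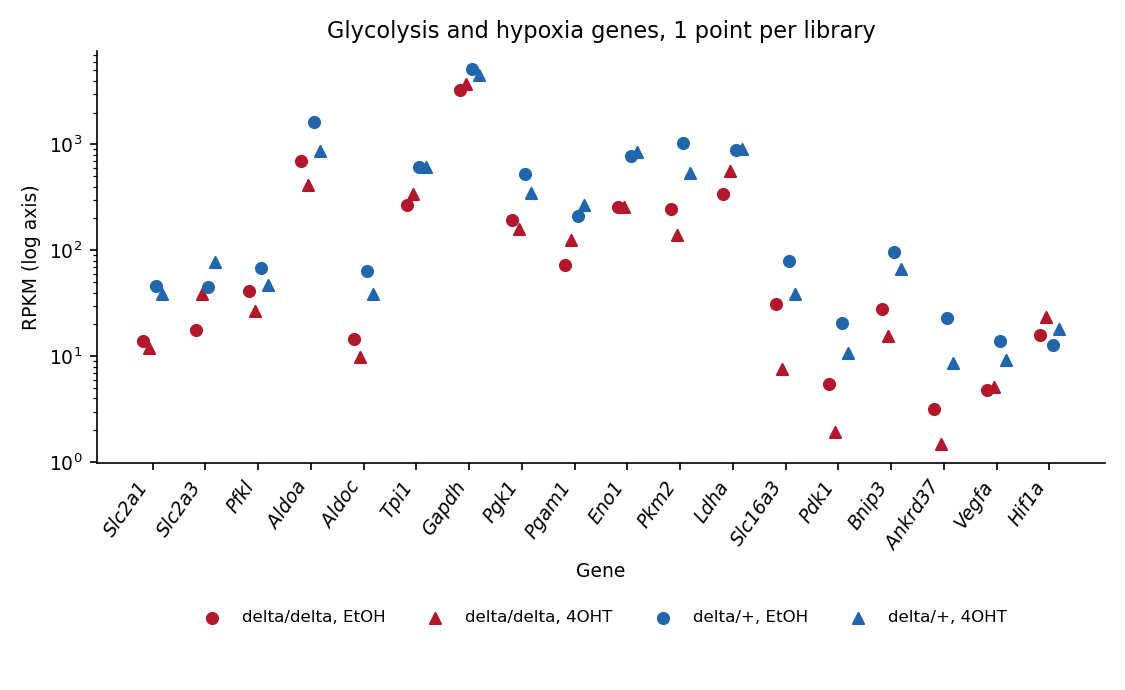
RPKM of 18 genes of glycolysis and the hypoxia response in each library (log axis; red, Runx1 delta/delta; blue, Runx1 delta/+; circles, EtOH; triangles, 4OHT). Except for Hif1a, each red point lies below the blue point of the same shape.

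The other genes with the largest differences belonged to several classes. Igfbp5, a secreted binding protein of insulin-like growth factors, was higher, at 28.03 and 24.4 RPKM against 3.92 and 4.49 RPKM (difference 2.39, SE 0.16, limma adjusted p = 0.0126), with little change between treatments. Cd48, a SLAM family receptor used to sort stem cells and progenitors, was lower, at 10.4 and 16.0 RPKM against 58.7 and 47.8 RPKM (difference -1.96, SE 0.23, limma adjusted p = 0.0186). Ddx26b was at 19.1 and 12.0 RPKM against 99.01 and 53.5 RPKM. Ppia, cyclophilin A, and Slc25a4, the mitochondrial ADP/ATP carrier, were lower (differences -2.04 and -1.89), and both have many processed copies, so these values are uncertain. Tpm4, a tropomyosin, Cisd3, a mitochondrial iron-sulfur protein, Lrmp, a membrane protein of lymphoid cells, Iqcg and the X-linked Xlr4a were lower, with differences of -1.93, -1.94, -1.78, -1.79 and -1.86. For each of these genes the groups did not overlap.

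Erythroid genes differed in both directions. All 33 in the table were tested. Of these 8 were called higher and 2 lower, beside 4.68% and 6.91% of all genes. The counts were 6 and 1 after removal of the GC and length trend, where Hbb-b2 had no GC value and could not be fitted. The median difference, without that removal, was 0.42. The EtOH pair had a median of 0.67 and the 4OHT pair 0.15. Left-out libraries reversed it: the median was -0.94 without the EtOH and 1.75 without the 4OHT library of Runx1 delta/delta, and 1.61 and -0.71 without those of Runx1 delta/+. Klf1, a master regulator of red cell genes, was at 305 and 145 RPKM against 144 and 65.3 RPKM, with the lower Runx1 delta/delta library just above the higher Runx1 delta/+ library (difference 1.11, SE 0.12, limma adjusted p = 0.0176). Slc4a1, the anion exchanger band 3, was at 918 and 14.0 RPKM against 181 and 3.15 RPKM, and Aqp1, a water channel, at 89.0 and 1.86 RPKM against 25.2 and 0.0552 RPKM, so the treatments differed far more than the genotypes. The adult alpha globin gene Hba-a1 was called higher, at 5277 and 1971 RPKM against 922 and 753 RPKM. The other adult alpha globin gene, Hba-a2, was at 10837 and 482 RPKM against 7291 and 590 RPKM. Its pairs had opposite signs and it did not pass (difference 0.14, limma adjusted p = 0.670). Of the beta globin entries, Beta-s was called higher, at 35081 and 1312 RPKM against 20048 and 965 RPKM, and Hbb-b1 did not pass, at 8962 and 423 RPKM against 3870 and 349 RPKM. Beta-s was not called after removal of the trend. Members called lower were the less abundant beta globin genes Hbb-b2, at 155 and 17.2 RPKM against 390 and 39.6 RPKM, and Hbb-bh1, an embryonic globin, at 6.45 and 0.893 RPKM against 15.3 and 9.15 RPKM. The alpha globin genes are near-identical copies, as are the adult beta globin genes, so reads could be split between them. Gfi1b, a repressor required in red cells and platelets and described as a RUNX1 target, was at 275 and 163 RPKM against 154 and 77.8 RPKM (difference 0.95). Among 14 tested genes described as RUNX1 targets only 1 was called higher and 1 lower, with a median difference of 0.17. That is 14.3% of them, beside 11.6% of all tested genes. Of 16 tested megakaryocyte and platelet genes 0 were called higher and 2 lower, with the same counts after removal of the trend: the tetraspanin Cd9, at 17.6 and 19.9 RPKM against 46.4 and 33.2 RPKM, and the platelet chemokine Pf4, at 7.62 and 1.02 RPKM against 14.5 and 3.63 RPKM.

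Granule genes of neutrophils differed at low levels. Of 25 in the table only 8 reached a mean of 1 RPKM; a gene can pass that filter through 1 genotype, so no share of the 8 is given as support. Called higher were S100a8, a calcium-binding alarmin, at 30.5 and 29.7 RPKM against 9.46 and 9.39 RPKM (difference 1.58, SE 0.13, limma adjusted p = 0.0126), Lcn2, lipocalin 2, at 5.12 and 6.67 RPKM against 1.39 and 2.20 RPKM, Chi3l3, a chitinase-like protein, Lyz2, lysozyme, S100a9, the partner of S100a8, and Ly6c2, a surface protein; S100a9 did not pass after removal of the trend. Serpinb1a, an inhibitor of neutrophil proteases, was lower, at 4.69 and 12.0 RPKM against 13.1 and 21.5 RPKM. The summed RPKM of the list was 64.2 and 84.2 against 37.9 and 47.5, and Mpo and Elane were near 0 in all 4 libraries, as given above. Of 4 tested monocyte genes Fcgr3, an IgG receptor, was called higher, at 4.25 and 13.1 RPKM against 1.82 and 3.09 RPKM, and also after removal of the trend. Whether other cells in the sorted fraction took part in the interferon difference was not tested.

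The 3 Jun genes were higher. Of 13 tested genes of the AP-1 and immediate early list 4 were called higher and 0 lower, beside 4.68% and 6.91% of all genes. After removal of the trend 4 and 0 were called as well. The median difference, without that removal, was 0.83. The median was 0.19 without the EtOH library of Runx1 delta/delta, 0.54 without the EtOH library of Runx1 delta/+ and 0.15 without its 4OHT library. Junb was at 78.4 and 61.4 RPKM against 26.6 and 19.05 RPKM, Jund at 36.3 and 41.3 RPKM against 13.5 and 12.1 RPKM, and Jun at 18.0 and 10.4 RPKM against 4.95 and 4.1 RPKM. All 3 encode subunits of AP-1, and in none did the groups overlap. Ier2, an immediate early gene, was higher by 1.05. Clustered histone genes included 4 called higher of 12 tested, Hist1h4d, Hist1h4i, Hist1h4b, at 4.45 and 2.88 RPKM against 0.475 and 0.0813 RPKM, and Hist2h2aa1, at 4.68 and 2.31 RPKM against 1.001 and 0.0878 RPKM. The counts were 4 and 0 after removal of the trend. Hist1h4b was under 1 RPKM in both Runx1 delta/+ libraries, so it was tested only through the genotype in which it was high, and no share of the 12 is given as support. Such histone transcripts lack a long poly(A) tail and have near-identical copies, so their values are uncertain.

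Growth-related genes gave smaller counts. Of 33 tested ribosome biogenesis genes 6 were called lower and 1 higher (2 and 0 after removal of the trend), and the median was -0.32. Npm1, nucleophosmin, which is also recurrently mutated in acute myeloid leukaemia and has processed copies, was at 231 and 448 RPKM against 656 and 1014 RPKM (difference -1.34, SE 0.13, limma adjusted p = 0.0126). Gnl3, nucleostemin, was at 13.8 and 37.1 RPKM against 35.3 and 90.6 RPKM, and Bysl, a small-subunit assembly factor, was the member called higher. Of 31 tested genes recurrently mutated in this leukaemia 6 were lower: Flt3, Npm1, the splicing factor Sf3b1 (-0.89) and the cohesin subunits Smc3 (-0.82), Smc1a and Stag2. Removal of the trend ended the calls of Sf3b1 and the cohesin subunits. Of 23 genes of DNA methylation and Polycomb, the Polycomb genes Suz12, Mtf2, Bmi1 and Pcgf2 were called lower and Phf19 higher. With the trend removed Pcgf2 was still called and the other 4 were not. The median of this list was 0.17, and in both pairs 14 members were higher and 8 lower. The share called lower over all genes was 6.91%. Of 22 cholesterol synthesis genes 3 were called lower and 1 higher; the lower genes were Idi1, an isomerase of the pathway (-1.11), Mvd and Sc4mol. Of these Idi1 and Mvd were called with the trend removed. Calls in the cell cycle lists were near the background share. Of 28 G2 and mitosis genes 1 was called higher, the ubiquitin-conjugating enzyme Ube2c (0.98), and 3 lower, Hmmr (-1.23), Bub1 and Cenpe. Of 27 S phase genes 2 were called higher, Cdt1 (0.91) and Mcm5 (0.62). With the trend removed Ube2c and Cdt1 were called and the other 4 were not. The S phase genes had a median of 0.28 (0.43 with the trend removed). In both pairs 21 of the 27 were higher and 1 was lower, beside 3254 and 3878 of all 9595 genes. The same sign in both pairs is part of the rule of the comparison, so this count and that of the Polycomb list are descriptions only. Of 32 ribosomal protein genes Rpl11 and Rpl32 were higher and Rpl5 and Rpl7 lower, with Rpl11 at 3212 and 3531 RPKM against 2025 and 2147 RPKM. None of these 4 calls passed with the trend removed, and ribosomal protein genes have many processed copies.

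Regulators of stem and progenitor cells were mixed, with Gfi1b, Ly6a and Txnip of 17 called higher and Cd48, Erg, Angpt1, Ikzf2 and Bmi1 lower. Over all tested genes 4.68% were called higher and 6.91% lower. With the trend removed Gfi1b, Txnip, Cd48 and Erg were called. Erg, an ETS factor, was lower, at 2.43 and 6.38 RPKM against 10.4 and 14.2 RPKM (difference -1.39, SE 0.20, limma adjusted p = 0.0269), and Ly6a, which encodes the stem cell marker Sca-1, was higher, at 3.95 and 1.02 RPKM against 1.22 and 0.0613 RPKM. Pecam1, an adhesion molecule of endothelial and blood cells, was lower, at 2.14 and 3.58 RPKM against 8.11 and 12.0 RPKM. Among 19 tested genes of the STAT5 signalling list, the feedback genes Socs2 (-0.95) and Socs3 (0.87) were called lower and higher. That is 10.5% of the list, near the 11.6% called of all tested genes. Neither passed after removal of the trend. Of 13 BCL2 family genes 2 were called higher and 1 lower (0 and 1 after removal of the trend), all of them promoting cell death: Bik (0.73), Bbc3, which encodes PUMA (0.66), and Pmaip1, which encodes NOXA. Pmaip1, the member called lower, was at 2.19 and 6.88 RPKM against 7.51 and 15.2 RPKM. Genes of the RUNX and core-binding-factor group gave 0 calls among 5 tested. Of 19 tested neighbours of Runx1 on its chromosome, 2 were called higher and 1, Il10rb, lower. That is 15.8% of them, beside 11.6% of all tested genes. Ifngr2, a chain of the interferon gamma receptor, was higher, at 16.4 and 1.26 RPKM against 9.89 and 0.245 RPKM. Chaf1b, a chromatin assembly factor, was higher at 67.7 and 84.0 RPKM against 42.6 and 55.1 RPKM. After removal of the trend 0 of these neighbours passed.

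**Figure D5:**
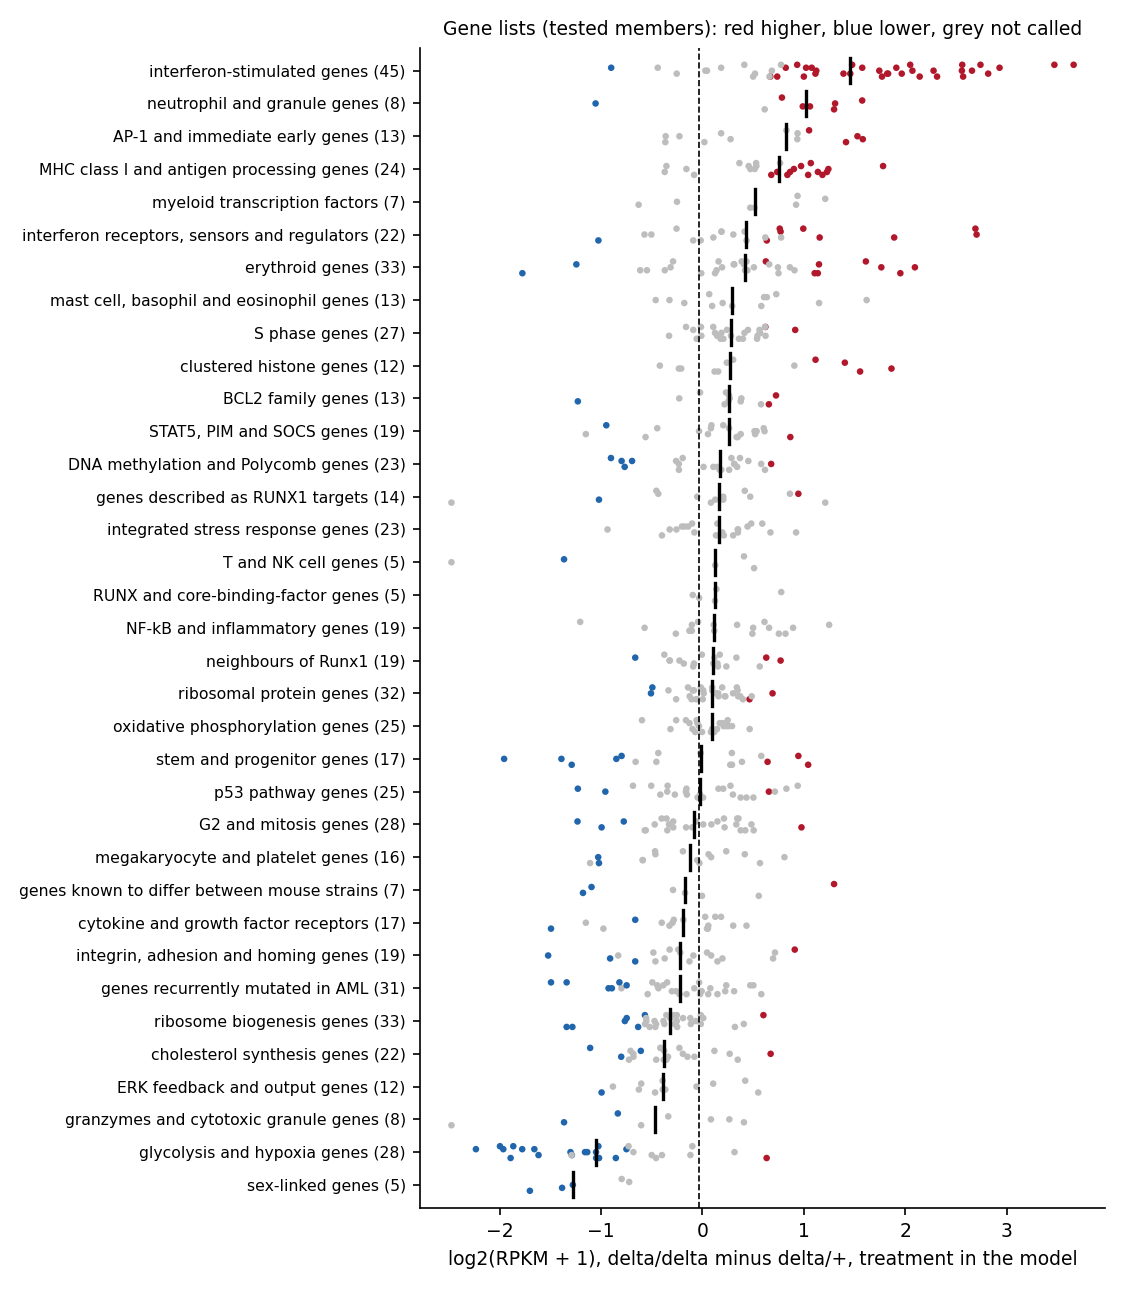
Each point is 1 tested member of a gene list, placed by its difference between genotypes (x axis, log2(RPKM + 1), Runx1 delta/delta minus Runx1 delta/+, treatment in the model); red points were called higher, blue lower and grey not called, and the number tested stands after each name. Black bars are list medians, from 1.46 for interferon-stimulated genes to -1.05 for glycolysis and hypoxia genes and -1.28 for the 5 sex-linked genes, beside the dashed median of all genes at -0.03. With the GC and length trend removed, which is not drawn, the medians of these lists were 1.31, -1.08 and -0.73.

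Xist, the RNA of the inactive X chromosome, had 27.1 and 14.9 RPKM against 78.7 and 58.1 RPKM (difference -1.70, SE 0.16, limma adjusted p = 0.0126). The Y-linked Eif2s3y was at 6.94 and 5.42 RPKM against 17.7 and 15.05 RPKM, and Ddx3y at 1.53 and 1.13 RPKM against 4.51 and 5.64 RPKM. Xist and Y-linked transcripts were thus both present in every library, and all 3 were lower in Runx1 delta/delta. After removal of the GC and length trend Xist and Eif2s3y were called and Ddx3y was not (limma adjusted p = 0.0715).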

How the data were processed

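RNA of 4 libraries was sequenced. Per the file headers, the authors deposited RPKM for 23240 genes with each library apart; the build was mm 9, per the submitters' processing notes, while the sources used here do not name the aligner, counting rule, annotation or strand use. The members and gene lists were chosen with earlier results of these data known.

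Genes averaging 1 RPKM or more were tested with limma 3.58.1 (R 4.3.3) on log2(RPKM + 1), a scale that understates the change of low genes, with genotype and treatment as terms, a trended prior (4.37 degrees of freedom beside 1 residual), two-sided, and Benjamini-Hochberg adjustment at 0.05 over 9595 genes. P-values measure only how far a gene's EtOH and 4OHT differences disagree, moderated by the spread of the other genes tested. They do not measure the spread between leukaemias of a genotype, since each genotype has 1 replicate number. The authors' own test columns were not used. Whole reads came out for 91.5% of genes (tolerance 0.02 reads), which gave the depths. Lists were described by counts and medians; 5 entries were found under older symbols. The text names Runx1, Flt3, the 15 largest called differences a direction (5 RPKM or more on average, clone names left out) and the 4 or fewer list members of smallest p; further members were chosen with their values known. GC content and length came from GRCm38 by symbol and covered 99.2% of tested genes. Alternatives were other pseudocounts, filters, scalings, priors, no treatment term, removal of the GC and length trend, and each library left out. Results for some genes are not reported here.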

Additional observations from a re-analysis of the deposited data

How the results depend on the processing

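No paired analysis by replicate number was possible because the genotypes share no number; the treatment term matches the libraries instead. The count of 1112 genes became 965 and 949 with pseudocounts of 0.1 and 0.5, 646 (310 higher, 336 lower) with a mean of at least 5 RPKM, 845 with median-ratio scaling (421 higher, 424 lower), 1414 (311 and 1103) after rescaling without erythroid genes, 1075 with a prior without trend and 508 (288 and 220) once GC content and length were regressed out. It was 0, in each direction too, with no filter on low values (17213 genes tested, 3906 at an unadjusted p under 0.05, smallest adjusted p 0.0585), with no treatment term, and in the range 0 to 0 with each library left out, where the model holds no treatment term because none could be fitted with residual degrees of freedom; the lone library of a genotype is then assumed to vary like the others and treatment is unbalanced.

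Under the settings that made calls, the count of interferon-stimulated genes called higher ran from 29 to 33 and that of glycolysis and hypoxia genes called lower from 16 to 21. The difference of Runx1 changed sign after rescaling without erythroid genes (-0.013), as did that of Ifnar2 (-0.017), and ranged from -0.26 to 0.50 with a library left out, beside -0.39 to 0.61 for Ifnar2. Other genes changed sign only with a library left out, with ranges of -0.79 to 2.33 for Ifngr2, -2.88 to 0.39 for Hbb-b2, -0.87 to 5.06 for Slc4a1, -0.88 to 4.1 for Aqp1, -1.46 to 2.94 for Hbb-b1, -1.74 to 2.995 for Beta-s, -0.027 to 0.87 for Gata1, -2.91 to 0.33 for Angpt1, -1.37 to 0.048 for Il10rb and -2.07 to 0.027 for Pf4. Depth limits genes near 1 RPKM: a single read per 1 kb of gene equals 0.0254 to 0.0297 RPKM.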

Other observations

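By chromosome (GRCm38 by symbol, a description with no test), the median difference between Runx1 delta/delta and Runx1 delta/+ lay, for the autosomes and X, between -0.21 on X (286 genes) and 0.06 on chromosomes 15 and 17; the median of X became -0.07 once GC content and length were regressed out. The 4 Y-linked genes had a median of -1.04. The largest difference of all, outside the naming rule because of its clone name and chosen after its value was seen, was that of Gm6793, at 1.13 and 1.34 RPKM (EtOH, 4OHT) in Runx1 delta/delta against 28.04 and 47.1 RPKM (difference -4.06). Neighbouring X-linked genes of the Xlr family moved alike: beside Xlr4a, Xlr4c was at 1.13 and 1.54 RPKM against 5.77 and 7.05 RPKM.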
